A study of Drosophila melanogaster with 2 samples.

Results

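The regions described are binding summits of the CG3032 protein that lay in introns, far from any gene start. Of the 8170 summits in the thresholded peak list of the study, 1351 (16.5%, exact 95% interval 15.7 to 17.4) lay inside a protein-coding gene, in no annotated exon, more than 5000 bp from the nearest transcription start site (TSS) of a protein-coding gene, and with no TSS of a noncoding RNA gene within 500 bp. They are called distal intronic summits here. The choice used position only and no measured signal. Whole Drosophila melanogaster prepupae, 24 hours old and with both sexes pooled, came from 1 transgenic line that stably expresses CG3032 with eGFP fused to its C-terminus, and the chromatin was precipitated with an antibody against GFP. There were 2 biological replicates, numbered 2 and 3, and no other genotype, stage or treatment. The thresholded list was made by the authors with IDR, the irreproducible discovery rate, which keeps peaks whose ranks repeat between replicates. A whole animal mixes all tissues, so a summit does not say in which cells the protein was bound.

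As background, long introns of Drosophila genes often hold enhancers, short stretches of DNA where transcription factors bind and from which they act on a promoter some distance away. Developmental regulators tend to have long first introns, with many such elements in a row. Prepupal life is the start of metamorphosis, which is set off by pulses of the steroid hormone ecdysone and in which imaginal discs are turned into adult structures. Little is known of CG3032 itself, so its role at these places is not described here.

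The sequences below are shown because they carried the highest signal among distal intronic summits outside the right arm of chromosome 2. Each runs 80 bp to either side of the summit, which is the central base, on the dm6 assembly as given by RefSeq. Capitals mark, on either strand, any TATA box word (TATAAA), any GATA factor word (TGATAA) and any core promoter Motif 1 word (GGTCACACT). Their A+T content was 66.5% in dpp, 70.8% in CG42238, 52.2% in CG32486 and 77.6% in msi. The strongest of them lay in the first intron of dpp, which encodes the BMP ligand Decapentaplegic, and the fourth lay in msi, which encodes the RNA-binding protein Musashi.
dpp intron, chr2L:2433562-2433722, plus strand: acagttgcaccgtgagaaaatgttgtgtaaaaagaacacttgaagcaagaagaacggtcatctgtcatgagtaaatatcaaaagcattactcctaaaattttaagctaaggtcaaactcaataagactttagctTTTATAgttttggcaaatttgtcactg
CG42238 intron, chr2L:21009442-21009602, plus strand: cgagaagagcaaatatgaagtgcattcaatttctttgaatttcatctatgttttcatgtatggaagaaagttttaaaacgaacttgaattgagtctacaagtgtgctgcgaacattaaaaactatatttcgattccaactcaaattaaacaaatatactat
CG32486 intron, chr3L:3060734-3060894, plus strand: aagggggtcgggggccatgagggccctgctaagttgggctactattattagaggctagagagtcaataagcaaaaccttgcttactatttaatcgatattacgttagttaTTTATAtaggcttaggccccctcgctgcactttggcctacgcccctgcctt
msi intron, chr3R:25555425-25555585, plus strand: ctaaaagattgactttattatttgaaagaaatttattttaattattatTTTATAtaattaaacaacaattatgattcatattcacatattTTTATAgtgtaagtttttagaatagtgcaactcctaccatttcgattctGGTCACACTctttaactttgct

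An 8-base word, TGCACTGA (TCAGTGCA on the other strand), stood near more of these summits than of promoter summits, as set out further on. The next sequences are shown because they hold that word together with GCACTGAG, which overlaps it by 7 letters in the joint form TGCACTGAG. Of the summits found in both replicates, 27 outside the right arm of chromosome 2 had both words in a window of this length, and those with the highest signal are printed. Capitals mark the words on either strand. In most of them the word stood near an edge of the window and the central bases, where the summit is, were rich in A and T.
pnt intron, chr3R:23326407-23326567, plus strand: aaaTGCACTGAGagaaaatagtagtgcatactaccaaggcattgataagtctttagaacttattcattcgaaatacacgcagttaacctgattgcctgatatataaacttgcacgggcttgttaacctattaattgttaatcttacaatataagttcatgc
CG10283 intron, chr2L:18477543-18477703, plus strand: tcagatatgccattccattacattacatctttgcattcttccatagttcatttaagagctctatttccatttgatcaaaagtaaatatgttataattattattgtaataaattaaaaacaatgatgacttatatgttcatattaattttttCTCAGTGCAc
pum intron, chr3R:9147570-9147730, plus strand: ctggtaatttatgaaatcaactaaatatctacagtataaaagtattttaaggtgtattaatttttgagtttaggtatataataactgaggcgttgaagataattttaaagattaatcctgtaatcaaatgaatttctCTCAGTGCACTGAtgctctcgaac
kirre intron, chrX:3047841-3048001, plus strand: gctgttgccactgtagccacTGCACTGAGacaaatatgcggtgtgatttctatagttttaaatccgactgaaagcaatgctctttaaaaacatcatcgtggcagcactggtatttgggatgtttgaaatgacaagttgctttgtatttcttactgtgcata
pigs intron, chrX:6621652-6621812, plus strand: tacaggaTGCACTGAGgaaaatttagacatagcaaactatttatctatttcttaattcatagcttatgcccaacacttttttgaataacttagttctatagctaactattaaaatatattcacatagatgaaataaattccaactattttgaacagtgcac
Snoo intron, chr2L:7916438-7916598, plus strand: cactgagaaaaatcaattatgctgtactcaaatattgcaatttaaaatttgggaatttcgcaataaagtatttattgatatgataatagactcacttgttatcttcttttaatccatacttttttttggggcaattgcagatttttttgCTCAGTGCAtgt

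The signal of distal intronic summits was slightly lower than that of the rest of the list, and few were among its strongest peaks. The signal value is the authors' own, on a scale the sources used here do not define. In the IDR list the median was 290 for distal intronic summits (quartiles 202 and 508, highest 3038) and 305 for the 6819 other summits (quartiles 204 and 572, highest 7902). The exact 95% intervals of these medians were 278 to 300 for distal intronic summits and 298 to 313 for the others, and they touched. In replicate 2 the median was 97.8 for distal intronic summits and 109 for the others, and in replicate 3 it was 206 and 214. The share of distal intronic summits above the median of the others was 46.3% in the IDR list (43.6 to 48.96). It was 44.5% in replicate 2 (41.8 to 47.2) and 47.2% in replicate 3 (44.5 to 49.96). The share itself was thus under an even split in all 3 lists, which are not independent of one another. The intervals count neighbouring summits as independent, so they are no test against an even split. With the strongest peaks of replicate 3 alone in place of the IDR list, the share was 47.5%. Its interval, 44.8 to 50.2, reached an even split. The strongest peaks differed more. Distal intronic summits made up 2 of the 100 strongest IDR peaks (2%, 0.243 to 7.04), 38 of the 400 strongest (9.5%, 6.81 to 12.8) and 128 of the 1000 strongest (12.8%, 10.8 to 15.03), against 16.5% of the whole list. Promoter summits, within 500 bp of a protein-coding TSS, made up 58 of the 100 strongest, and intronic summits between 500 and 5000 bp from a TSS 25. The 805 intergenic summits over 5000 bp from a TSS were few there too. They made up 1 of the 100, 22 of the 400 and 78 of the 1000 strongest. Peaks were also narrower, with a median width of 305 bp for distal intronic summits and 343 bp for the others.

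A slightly higher share of distal intronic summits than of the others was found again in both replicate lists. A summit lay within 100 bp in both replicate lists for 1255 of them (92.9%, 91.4 to 94.2), against 90.6% of the other summits (89.9 to 91.3) and 88.01% of the 3068 promoter summits (86.8 to 89.1). A further 42 had a match in replicate 2 alone, 52 in replicate 3 alone and 2 in neither. The median distance from the IDR summit was 15 bp in replicate 2 and 8 bp in replicate 3. Among intronic summits nearer to a gene start, the share matched in both lists was also 92.9% (91.6 to 94.1). Among intergenic summits far from a gene start it was 93.4% (91.5 to 95.03). The higher share was thus not particular to distal intronic summits, and of the classes compared the promoter summits had the lowest. Over the summits matched in both, Spearman's rho of the replicate signals was 0.80 for the 1255 distal intronic summits and 0.80 for the others, as a description across regions. The IDR list was derived from the replicate lists, so these shares are no independent test of reproducibility. The plot of replicate signals shows a tight relation among strong summits and a wide scatter among weak ones.

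**Figure D1:**
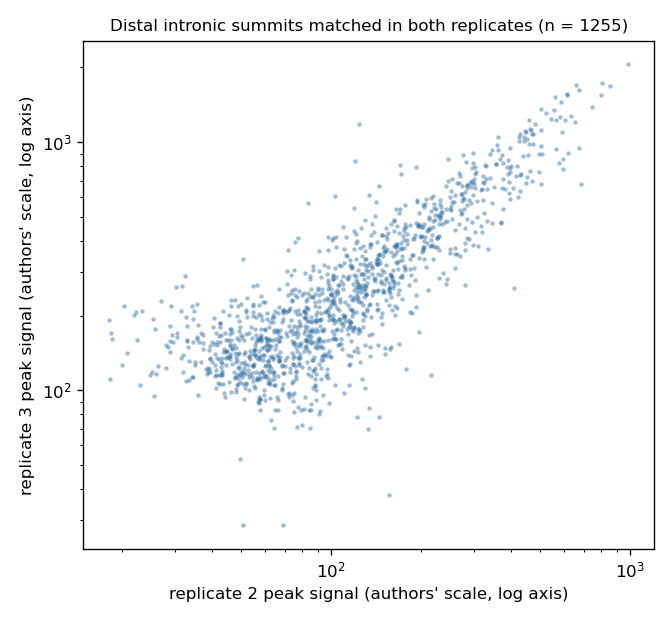
Signal of each distal intronic summit in replicate 2 (x axis) and replicate 3 (y axis), on the authors' scale with both axes logarithmic, for the 1255 summits matched within 100 bp in both lists. Each point is 1 summit. Points draw together toward the strong end, up to 982 in replicate 2 and 2061 in replicate 3, and scatter widely where replicate 2 is weak.

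The 20 strongest distal intronic summits with a match in both replicates had IDR signals of 1767 to 3038 and ranked 60 to 253 of the 8170 peaks. The first of them, in dpp, had a signal of 982 in replicate 2 and 2061 in replicate 3, with rank 69 and rank 60 in those lists. It lay 5.27 kb from the nearest TSS, close to the limit of the definition. The summit in CG42238 lay far deeper, 40.6 kb from the nearest TSS in the fourth intron, and had 858 in replicate 2 and 1684 in replicate 3. It ranked 108 in replicate 2 and 105 in replicate 3.

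Other summits of the 20 lay in genes of varied function. The gene Hr4, which encodes a nuclear receptor of the early ecdysone response, held 2 of the 20 summits in its first intron, with IDR signals of 2164 and 1910. The summit 9.97 kb from the start of Hr4 had 613 in replicate 2 and 1565 in replicate 3. Eip75B, which encodes the nuclear receptor E75, had a summit of 1835 in the fifth intron, with 523 in replicate 2 and 1315 in replicate 3. The trithorax gene trx, a histone methyltransferase gene, had 2346, with 660 in replicate 2 and 1694 in replicate 3. The Polycomb group gene Psc had 2073, the Myc transcription factor gene Myc 2136, the MAP kinase kinase kinase gene Raf 2170, and a summit inside both Mi-2, a chromatin remodeller gene, and Su(Tpl) had 1850. The ETS factor gene pnt had 1837, with 605 in replicate 2 and 1227 in replicate 3. The remaining summits of the 20 lay in tara (2268), Prp16 (2040), Snoo (1892), Tet (1852), nudC and CG13024 (1848), RhoGAP19D (1801) and sba (1767).

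A minority of the genes that could hold a distal intronic summit did so, and a few held many. In all, 1827 protein-coding genes had at least some sequence that met the positional rule, called eligible sequence here, and 467 of them held a summit, which is 25.6% of those genes. Of these host genes, 186 held 1 summit and 281 held at least 2, and those 281 contained 1171 of the 1351 summits (86.7%). Genes with 5 or more numbered 87 and held 644, and genes with 10 or more numbered 18 and held 236 (17.5%). Overlapping genes share some of them, since 33 summits lay inside more than 1 gene. The share of hosts grew with the eligible length of a gene. It was 1.86% of genes with under 1 kb, 28.03% of those with 5 to 10 kb, 40.8% of those with 10 to 20 kb and 57.1% of those with 50 kb or more. From 1 kb up, summits per Mb of eligible sequence fell with length. There were 77.4 per Mb at 1 to 5 kb, 67.7 at 10 to 20 kb and 32.9 at 50 kb or more, with repeat-rich genes, described further on, included. Spearman's rho between eligible length and number of summits over the 467 hosts was 0.51, as a description across genes. Signal did not track the number in a gene closely, with a median of 269 where a summit was alone in its host (253 to 288) and 296 in hosts with 10 or more (265 to 342).

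Tet, which encodes the fly homologue of the TET dioxygenases, held the most distal intronic summits, with 24 along 73.9 kb of its 92.95-kb span. They fell in 5 of its 11 introns, and 11 were in the fifth intron. Their IDR signals ran between 159 and 1852 with a median of 339, and the strongest lay 43.96 kb from the 5′ end of the gene, with 653 in replicate 2 and 1206 in replicate 3. It stood among neighbours at 963 and 704. The immunoglobulin-type adhesion gene kirre, which acts in myoblast fusion, held 22, and 16 of these were in the ninth intron. They had a median of 298 and a highest value of 1662, and 7 of the 16 in that intron were over 1000, whereas the other 6 summits of the gene stayed between 152 and 270. Snoo, a gene of the Ski/Sno corepressor family, held 21, all in the second intron, over 74.1 kb. The strongest of that series, with 1892, lay 84.05 kb from the 5′ end of the gene, and another of 1389 lay 58.6 kb from it. At the ends of the series the summits were weak, with 163 at 12.6 kb and 267 at 86.8 kb.

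Further long series were in SKIP with 15, in the Frizzled receptor gene fz with 14 and in the Hox cofactor gene hth with 14. The 14 summits of hth were spread over 8 of its 14 introns and 116 kb, with a median of 291 and a highest value of 753, and 4 of them lay over 80 kb from any protein-coding TSS. The corepressor gene sbb, known as scribbler or brakeless, had the shortest span and the highest median signal among the 12 genes drawn in the map of summits. All 13 summits stood in its first intron within 15.9 kb, with a median gap of 1.35 kb and a median signal of 538, and the 3 strongest had 1636, 1402 and 1239. The median signals of these 13 were 143 in replicate 2 and 416 in replicate 3, against 97.8 and 206 over all distal intronic summits. The zinc finger gene jing also kept all of its 11 in the first intron, but over 80.1 kb. Series of 11 were also in heca and CG43658, and 8 genes tied at 10, namely CG42238, bbg, Prosap, mtgo, luna, Fas3, ed and mgl. Median signals in these 10 genes lay between 246 and 433. The map of 12 of the 18 genes with 10 or more, in which CG42238 and bbg stand for the tied genes as those with the highest signals, shows strong and weak summits side by side within a series.

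**Figure D2:**
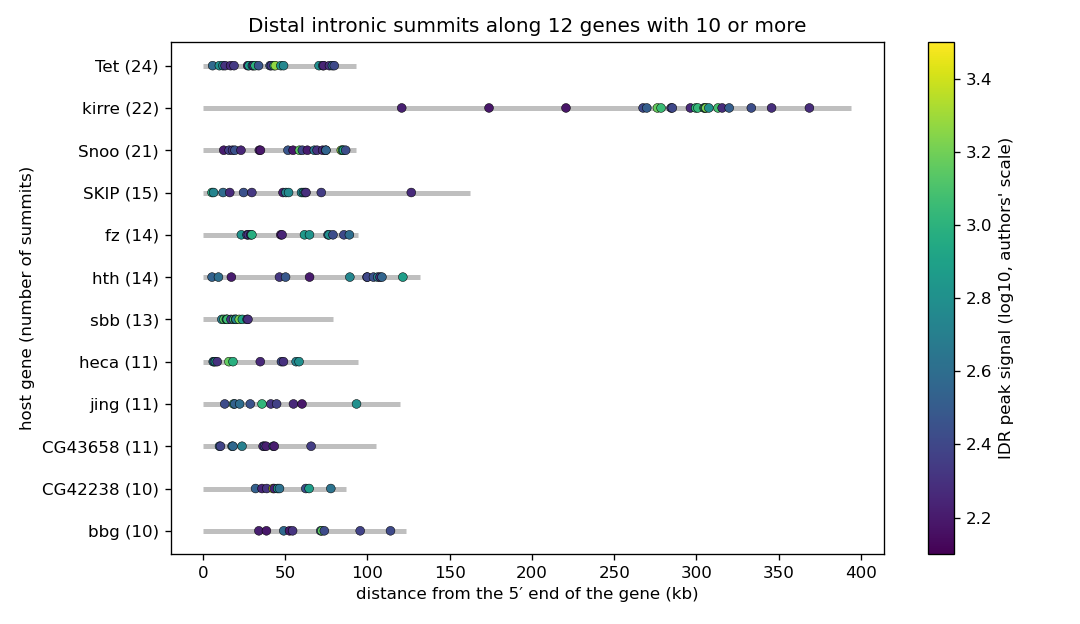
Distal intronic summits along 12 of the 18 host genes with 10 or more (of the 8 tied at 10, those with the highest signals are drawn), each shown as a grey bar from its 5′ end (0) to its 3′ end, with distance in kb on the x axis. Each circle is 1 summit, coloured by its IDR signal on a log10 scale, and numbers in brackets count the summits. The 13 of sbb crowd into 15.9 kb, and the 14 of hth cover 116 kb.

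Summits of a gene were usually near one another. Among 898 pairs of neighbours in the same gene the median gap was 2.86 kb (quartiles 1.25 and 7.53 kb), 364 pairs (40.5%) were within 2 kb, and 707 (78.7%) shared an intron. Of all distal intronic summits, 901 (66.7%) had another within 5 kb. The smallest gap was 199 bp, in sbb. Counted against eligible length, the densest hosts with at least 5 summits were not the longest genes. Reck had 5 in 3.94 kb, Mnt, which encodes a Max-binding repressor, had 8 in 10.9 kb, Tis11, which encodes an RNA-binding protein of the tristetraprolin family, had 8 in 12.3 kb, and Raf had 7 in 11.8 kb.

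Within genes, distal intronic summits lay in the first intron and in the longest intron more often than the share of eligible sequence there. The first intron held 425 (31.5%, 28.99 to 34.01) and had 17.6% of the eligible bases. The longest intron held 894 (66.2%, 63.6 to 68.7) and had 47.8% of them. The intron around a summit had a median length of 19.5 kb, and the summit lay at a median of 10.2 kb from the nearest protein-coding TSS, the farthest at 83.5 kb. The nearest inside the limit were in Pdk at 5004 bp, tara at 5005 bp and shep at 5008 bp, with signals of 304, 736 and 998. Just outside it were summits in stumps at 4994 bp, CG46339 at 4992 bp and cv-c at 4989 bp, with 190, 531 and 1192.

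The density of distal intronic summits fell with distance from the gene start. There were 72.02 summits per Mb of eligible sequence at 5 to 7.5 kb (65.2 to 79.3, exact Poisson interval), 61.2 at 10 to 15 kb (54.6 to 68.4), 34.6 at 30 to 50 kb (26.999 to 43.8) and 2.23 beyond 50 kb (1.07 to 4.10). Of the 4.49 Mb beyond 50 kb, all but 0.482 Mb was in genes over 30% of whose bases are marked as repeats in the RefSeq sequence by soft-masking. Without those 137 genes the density beyond 50 kb was 20.8 per Mb (9.95 to 38.2), and at 5 to 7.5 kb it was 73.5. Of the 10 summits beyond 50 kb, 8 were in hth, and without that gene as well the density there was 4.64 per Mb (0.562 to 16.8). Their 6.13 Mb held 57 summits, 9.31 per Mb, while the other 1690 genes had 60.8 per Mb. How many reads can be placed in repeats is not known from the lists, and its part in these densities was not tested. Without those genes the first intron had 20.05% and the longest intron 52.3% of the eligible bases. The threshold of 30% and the omission of hth were chosen after the data were seen.

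**Figure D3:**
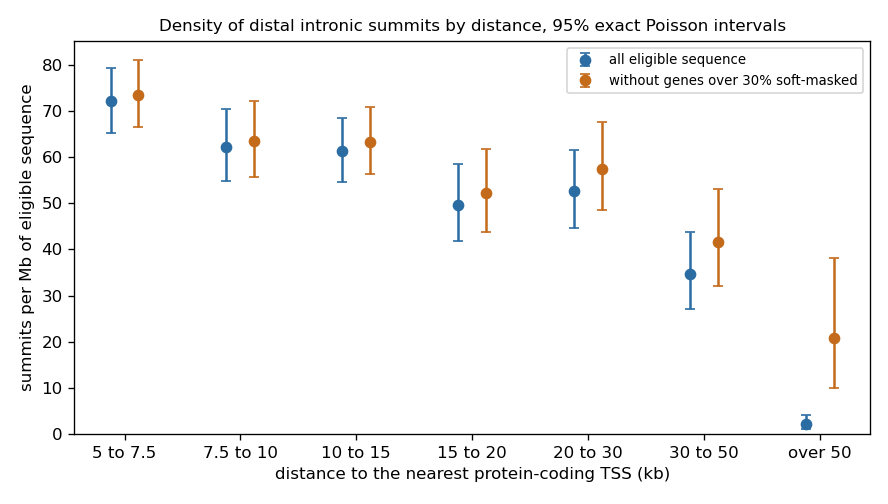
Distal intronic summits per Mb of eligible sequence (y axis) by distance to the nearest protein-coding TSS in kb (x axis), with exact 95% Poisson intervals as bars. Blue points use all eligible sequence and orange points leave out the 137 genes over 30% soft-masked. Density was 72.02 per Mb at 5 to 7.5 kb, and beyond 50 kb it was 2.23 per Mb with those genes and 20.8 without, where 8 of the 10 summits are in hth.

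All large arms carried distal intronic summits, with densities per Mb of eligible sequence of 60.03 (2L), 44.1 (2R), 53.2 (3L), 41.8 (3R) and 58.03 (X). Over the whole eligible sequence, 27.2 Mb or 20.3% of the arms, there were 49.8 per Mb, against 61.02 IDR summits per Mb over the arms as a whole. The repeat-rich genes described above were not left out of these densities. Among those without a summit, Myo81F (1789 kb eligible) and Pzl (626 kb) lay on 3R, lovit (398 kb) on 3L and DIP-lambda (344 kb) on 2R. Over host-capable genes the density was 49.5 per Mb, and 60.8 without the repeat-rich genes. Their part in the arm densities was not tested. Chromosome 4 had 44 IDR summits and none of them was distal intronic. Its 0.197 Mb of eligible sequence allows a density of up to 18.7 per Mb (exact Poisson interval of a count of 0).

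A larger share of the hosts than of the other host-capable genes also had a summit at a promoter of their own. Of the 467 hosts, 240 (51.4%) also had an IDR summit within 500 bp of one of their own TSSs, against 374 of the 1360 host-capable genes with no distal intronic summit (27.5%) and 27.0% of all 13945 protein-coding genes. The gap was present at each length from 1 kb of eligible sequence up. Among genes with 1 to 5 kb it was 41 of 67 hosts (61.2%) against 123 of 387 others (31.8%), and among those with 20 to 50 kb it was 74 of 135 hosts (54.8%) against 20 of 140 others (14.3%). Intervals of hosts and others did not overlap in any of these length classes. At 50 kb or more they were 29.9 to 55.2 for hosts and 6.07 to 27.8 for others. The 137 genes over 30% soft-masked, of which 19 were hosts, were not left out, and their part in the gap was not tested. No test of the relation between distal intronic and promoter summits was run.

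Host genes were described with 9 lists of genes by function, and their shares are set beside the 25.6% of all host-capable genes. The lists also differed in length. The host share grew with length, to 49.1% of all genes with 20 to 50 kb of eligible sequence and 57.1% with 50 kb or more. Summits per Mb fell from 77.4 at 1 to 5 kb to 32.9 at 50 kb or more. The median eligible sequence per gene was 27.3 kb in the ecdysone list, 11.2 kb in the signalling list, 11.5 kb in the developmental factor list and 5.45 kb over all host-capable genes. The part of length in the shares and densities was not tested. Among ecdysone cascade genes 14 of 19 were hosts (73.7%, exact interval 48.8 to 90.9), with 110 summits per Mb. The ecdysone coactivator gene tai had 8, Eip75B 7, Eip63E, a cyclin-dependent kinase gene, 7 and Hr4 6. Neither br, the Broad transcription factor gene, nor crol had any, with 36.6 kb of eligible sequence in br and 2.90 kb in crol. Signalling ligands, receptors and transducers had hosts in 35 of 55 genes (63.6%, 49.6 to 76.2) and 126 summits per Mb. After fz came Raf, the atypical cadherin gene ds of planar polarity and the phosphatase gene Ptp61F with 7 each, and Actbeta and Alk had none, on 0.728 and 0.321 kb of eligible sequence. Disc patterning and developmental transcription factors had 35 of 62 (56.5%, 43.3 to 69.01) and 106 per Mb. Besides hth and jing, the Krüppel-like factor gene luna had 10 and the LIM-only gene Bx had 7. The homeobox genes al and ap, of leg and wing, had none, on 2.89 and 5.72 kb of eligible sequence.

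Chromatin and Polycomb or trithorax genes had hosts in 7 of 20 (35%, 15.4 to 59.2), with short eligible sequence, at a median of 3.17 kb per gene, and 117 summits per Mb, or 197 without the 3 genes over 30% soft-masked. They were led by trx with 4, tna with 3, Mi-2 with 2 and Psc with 1. E(bx) and HDAC4 had none, on 0.245 and 3.27 kb of eligible sequence. RNA-binding and splicing regulators had hosts in 13 of 23 (56.5%, 34.5 to 76.8) and 32.9 summits per Mb, with a median of 46.9 kb of eligible sequence per gene. The gene mub had 6, heph 5, and msi and the Pumilio gene pum 4 each, while bru2 and bru3 had none. Among Hox genes the homeotic gene Antp had 7 and Ubx 1, and the other 6 had none, abd-A and Abd-B among them (25%, 3.19 to 65.1).

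Genes of neuronal excitability stood at the other end. Ion channels, transmitter receptors and synapse genes had hosts in 4 of 68 (5.88%, 1.63 to 14.4) and 6 summits in 1.28 Mb, 4.68 per Mb (1.72 to 10.2), against 49.5 per Mb over all host-capable genes. The calcium channel subunit gene Ca-beta and the acetylcholine receptor gene nAChRalpha6 had 2 each and rdgA and mAChR-B 1 each. The serotonin receptor genes 5-HT1A and 5-HT1B had none, with 35.4 kb of eligible sequence in 5-HT1A and 0.461 kb in 5-HT1B. Cell adhesion and axon guidance genes had hosts in 27 of 92 (29.3%, 20.3 to 39.8) and 31.6 per Mb. Of these, kirre held 22, the adhesion gene Fas3 10, the teneurin gene Ten-a 7 and the semaphorin gene Sema1a 6, and beat-Ia and beat-IIa had none. Genes of the cytoskeleton and muscle, with their regulators, had hosts in 15 of 53 (28.3%, 16.8 to 42.3), namely Ptp61F and cv-c with 7 each and Abl and mbc with 3 each at the head, and none in alpha-Spec or Ank. Their density was 17.1 per Mb with all genes and 76.0 without the 5 that were over 30% soft-masked, among them Myo81F with 1789 kb of eligible sequence and no summit. The whole of the host-capable genes went to 60.8 per Mb without such genes.

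**Figure D4:**
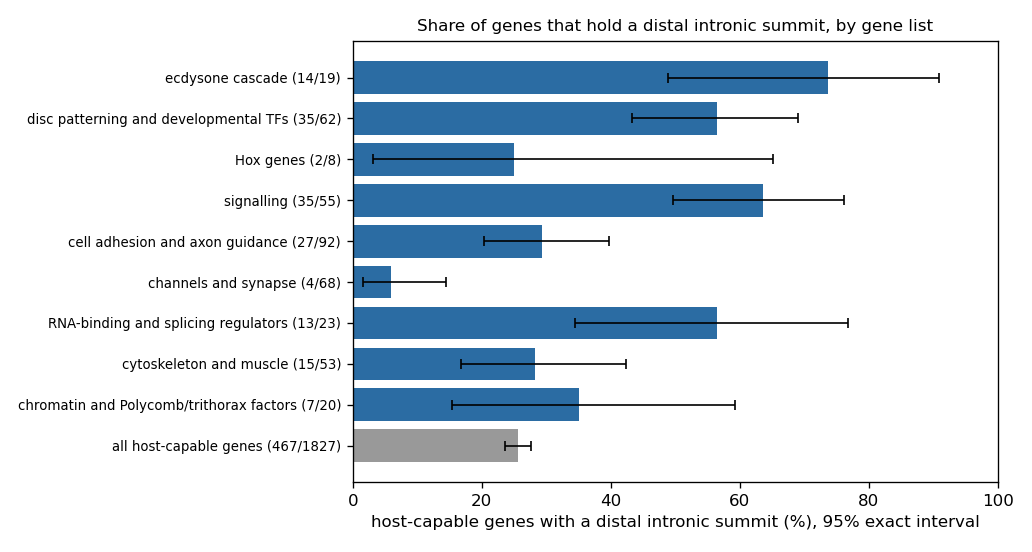
Share of host-capable genes that hold a distal intronic summit (x axis, %) in each of the 9 gene lists and, in grey, among all 1827 host-capable genes, with exact 95% binomial intervals as bars. Hosts and host-capable genes are given in brackets. Ecdysone cascade genes reached 73.7%, channel and synapse genes 5.88% and all host-capable genes 25.6%.

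Several of the longest genes had no distal intronic summit. The 6 longest of these by eligible sequence among genes at most 30% soft-masked, chosen after their values were seen, were bru3 with 233 kb, CG40006 with 120.9 kb, the immunoglobulin genes dpr6 with 119 kb, dpr21 with 118.9 kb and dpr8 with 114.7 kb, and mbl, the muscleblind splicing factor gene, with 99.8 kb. Of these 6, only mbl had a summit at its own promoter.

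The DNA at distal intronic summits was rich in A and T. Within 100 bp of the summit the median G+C content was 33.3% at distal intronic summits and 33.3% at the others, and in windows of the same length 500 bp to either side it was 43.5% around distal intronic summits and 44.03% around the others. All eligible sequence had 40.3%. The window was poorer in G+C than its own flanks at 86.97% of distal intronic summits and at 81.3% of the others. A+T content was 69.6% in the 25 bp after the distal intronic summit and came down to 53.05% at 275 to 300 bp before it, below the 58.8% found 600 bp away. The strongest summits were not all alike in this, as the window had 21.9% G+C in msi and 49.3% in CG32486 and in the stronger summit of Hr4.

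Known motifs were counted as exact words on both strands within 100 bp of the summit. The TATAAA word stood at 37.8% of distal intronic summits, against 19.8% of their flanks, and at 38.7% of the other summits. TGATAA stood at 16.7% of distal intronic summits, against 9.81% of their flanks, and at 16.7% of the other summits. A run of 8 A was at 21.2% of distal intronic summits and 15.4% of their flanks. At promoter summits it was at 14.4%, and in their flanks at 9.29%, so the flanks of the 2 classes differed as well. Some words were less frequent at summits than in flanks, with GCCAT, the core of the Pho site, at 25.02% of distal intronic summits and 37.7% of their flanks, and the E-box CACGTG at 0.518% of distal intronic summits and 2.11% of their flanks. Of the core promoter words, TATAAA had a similar share at promoter summits, 38.3%, but DRE and Motif 1 were more frequent there. The DRE word TATCGATA stood at 5 distal intronic summits (0.370%, 0.120 to 0.862) and 208 promoter summits (6.78%), and Motif 1, GGTCACACT, at 9 distal intronic summits (0.666%, 0.305 to 1.26) and 102 promoter summits (3.32%). One of those 9 was the msi summit printed above. A+T-rich words are frequent wherever A+T is high, and the part of base composition in these shares was not tested.

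Among all words of 8 bases, those with the largest ratio of share at distal intronic summits to share in flanks included TCAGTGCA. This ranking by ratio was added after the data were seen, because ranking by difference gave only words made of A and T. The word was picked on the 449 summits of 2 of the autosomal arms and chromosome 4, where it stood at 27 summits (6.01%). On the other 3 arms, which the ranking had not used, it stood at 53 of 902 (5.88%), against 0.887% of their flanks, a ratio of 6.63. The neighbouring word CTCAGTGC had a ratio of 7.64 there. Over all arms, TGCACTGA stood at 80 distal intronic summits (5.92%, 4.72 to 7.32) and 0.666% of their flanks. It stood at 3.65% of intronic summits between 500 and 5000 bp from a gene start (2.83 to 4.62), at 7.58% of intergenic summits over 5000 bp from one (5.85 to 9.63) and at 1.47% of promoter summits (1.07 to 1.96). Of these classes, the summits far from gene starts had the higher shares, in introns and between genes alike. Counting TGCACTGA or GCACTGAG, 99 distal intronic summits in 82 host genes had a match.

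Copies of this word kept a distance from the summit itself. Of 86 copies within 100 bp of a distal intronic summit, 81 were 25 to 100 bp away and 5 were nearer, with a median distance of 69.5 bp. Around promoter summits, 8 of 45 copies were nearer than 25 bp. The bases before TCAGTGCA were also uneven. Read in that direction, over the 85 copies that lay wholly in the window, the base 6 places before the word was T in 75.3%, the base 5 places before it in 88.2% and the base 4 places before it in 80% of copies, while no base exceeded 36.5% in any of the 8 places after it. The printed sequences of CG10283 and Snoo show such a stretch of T before the word. The median signal was 316 for the 99 summits with either word and 287 for the 1252 without in the IDR list, but 276 with GCACTGAG and 290 without it, and 261 with both words and 290 without both, so no direction is read from signal. With either word and without, the medians were 101.3 and 97.8 in replicate 2, and 232 and 205.5 in replicate 3. A match is a run of letters and does not show which protein, if any, was bound there.

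**Figure D5:**
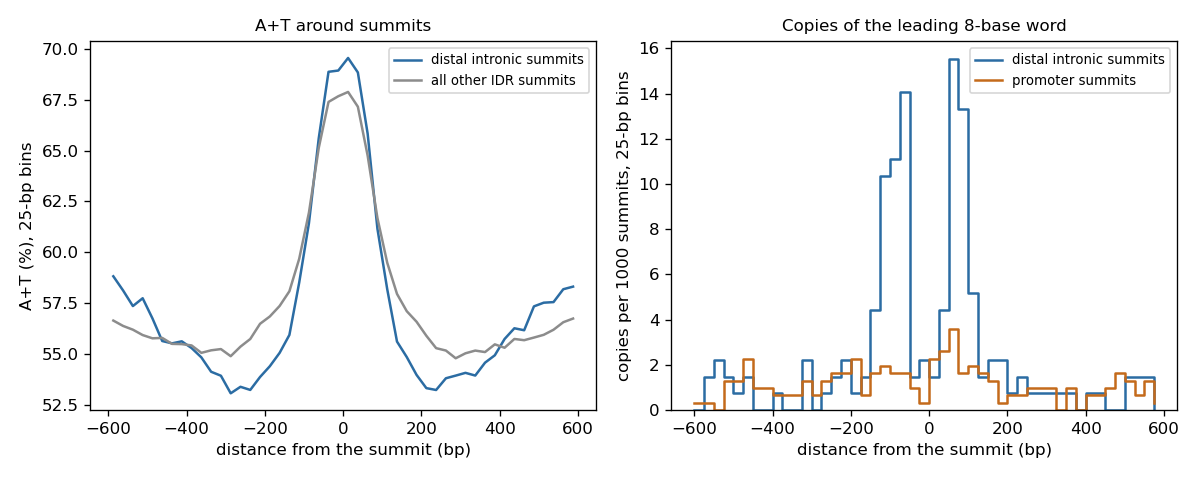
Left, A+T content (y axis, %) in 25-bp bins by distance from the summit in bp (x axis), for distal intronic summits in blue and all other IDR summits in grey. Right, copies of the leading 8-base word on either strand per 1000 summits (y axis) in 25-bp bins, for distal intronic summits in blue and promoter summits in orange. A+T content peaked at the summit, and copies of the word peaked on both of its sides, with a median distance of 69.5 bp among the 86 copies within 100 bp.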

How the data were processed

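Whole prepupae of the CG3032-eGFP line were assayed by ChIP-seq in 2 biological replicates, from fragments of 200 to 800 bp per the labels. The authors deposited 4 narrowPeak lists on dm6: 30000 peaks for each replicate, 30000 called on both replicates together, and 8170 after IDR, which the file headers describe as made from the other lists. The signal value and the −log10 q-value of each peak were deposited by the authors. The q-value was at its ceiling in all 8170 IDR peaks and was not used. For the aligner, the peak caller and the IDR cutoff, no name or setting is given by the sources used here. Control reads were not analysed here. Read depth is unknown, so intervals cover counting error over regions or genes only.

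Genes, exons and TSSs came from the Ensembl BDGP6 annotation and sequence from the RefSeq copy, both on the dm6 sequence. Exons of annotated transposable elements counted as exons. A gene was host-capable with at least 1 eligible base. Replicates were matched within 100 bp. Shares have 95% Clopper-Pearson intervals, medians exact order-statistic intervals and densities exact Poisson intervals. With 1 group there is no contrast, and no hypothesis test was run. Flanks are windows 500 bp to either side.

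The members, the 9 gene lists (633 symbols, 21 without a match), the 21 motifs and the settings were chosen with earlier results of these data known. Genes named are the hosts of the 20 strongest summits matched in both replicates, the 12 hosts with the most summits (those tied at 10 taken by highest signal), and per list up to 4 hosts with the most and the 2 alphabetically earliest host-capable genes without any. The densest hosts, the longest genes without a summit and the genes at the distance limit are also named. The positional rule was tested on simulated positions. The matching was run on positions shifted by less than its limit of 100 bp, so it had to succeed and is no test of false matches. Python 3.11.15, pandas 2.3.3, numpy 2.4.6, scipy 1.17.1 and matplotlib 3.10.9 were used.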

Additional observations from a re-analysis of the deposited data

How the results depend on the processing

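No paired analysis was possible because both replicates belong to 1 group. The main values were 1351 summits, 467 hosts, 25.6% of host-capable genes, 46.3% above the median of other summits, 92.9% matched in both replicates, 86.7% with a companion in the host and a median G+C of 33.3%. Of the alternative values of these 7 results, 41 stayed within 1.5 times (counts) or inside the main interval, and 25 did not. With a TSS limit of 2000 bp there were 2159 summits in 741 hosts (17.2%). With 10000 bp there were 690 in 248 (28.8%), and 42.6% were above the median. The IDR peaks above the median signal gave 636 summits, 17.3% of genes as hosts, 99.2% matched, 75.2% with a companion and 32.3% G+C. The list called on both replicates together gave 5710 summits in 722 hosts (39.5%), with 42.1% above the median, 41.4% matched, 97.7% with a companion and 38.3% G+C. Matching within 50 or 200 bp gave 77.2% or 96%, and a window of 50 bp to each side 29.7% G+C. Using the 8170 strongest peaks of 1 replicate, without replicate 2 or without replicate 3, gave 1281 to 1355 summits, 458 to 491 hosts, 25.1% to 26.9% of genes, 47.2% to 47.5% above the median, 89.8% to 90.8% matched, 83.5% to 88% with a companion and 33.3% G+C. In this setting each summit matched its own list by construction. The matched share therefore counts matches in the other replicate only and is not like the main 92.9%. Ranking by −log10 q-value was not run, since all IDR peaks share the ceiling. The cause of these shifts was not tested. Signal is on an undefined scale and depth is unknown, so how weak a binding event the lists could register is not known.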
